A study of Mus musculus with 14 samples.

Results

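The lysosomal gene set described here held 32 genes taken by name from textbook lysosomal functions: 9 proteases, 7 glycosidases, 4 genes of lipid breakdown, 7 membrane proteins, 4 parts of the proton pump and the regulator Tfeb. Of these, 31 were found by name among the 23793 loci of the AT1 cell and whole-lung table, and 23 among the 32609 loci of the AT2 cell table. Glb1, beta-galactosidase, was listed in the first table only in a locus shared with Tmppe and was skipped. Glb1, Lgmn, Hexa, Gusb, Lipa, Atp6v0d1, Atp6v1a, Atp6ap1 and Tfeb were not listed by name in the AT2 table. All 31 and all 23 reached 1 FPKM (sequenced fragments scaled to transcript length and library size) in at least 3 libraries and were tested.

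RNA sequencing compared Nkx2-1 mutant mice with controls. Sorted alveolar type 1 (AT1) cells, the thin cells of gas exchange, gave 3 mutant and 3 control libraries at postnatal day 5 from the cross labelled Nkx2-1;Aqp5. Alveolar type 2 (AT2) cells, which secrete surfactant, gave 3 mutant and 3 control libraries from the cross labelled Nkx2-1;Sftpc, with letters A and B at postnatal day 8 and letter C at day 9 in both arms. Whole lobes of the Nkx2-1;Aqp5 cross gave 1 mutant and 1 control library at postnatal day 14. Aqp5 and Sftpc are genes of AT1 and AT2 cells, but the sources used here do not give the alleles, the deleted part of Nkx2-1, what the controls carried or how AT2 cells were isolated. Nothing in the labels says that libraries came from separate animals, so p-values measure the spread between these libraries, which may be technical.

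Lysosomes break down proteins, glycans and lipids with hydrolases that work in acid. A proton pump, the V-ATPase, acidifies the lumen, and heavily glycosylated membrane proteins line the inner face of the limiting membrane. The transcription factor TFEB raises many of these genes together by binding CACGTG-containing sites near their starts, and mTORC1, which is recruited to the lysosome by the Rag GTPases, holds it in the cytoplasm. In AT2 cells the lamellar bodies that store surfactant are lysosome-related organelles, acidified by the same pump and bearing LAMP3, and the proteases napsin A and cathepsin H process surfactant proteins there.

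Promoter windows were searched because these genes share a known regulator. RefSeq windows on GRCm38.p6, from 250 bases before to 50 bases after the annotated start, were found for 29 of the 32 genes. CACGTG, which reads the same on both strands, was present for 11 of the 29 genes, against 8.09% of 27025 genes in the table. The longer TCACGTGA, which contains CACGTG and also reads the same on both strands, was present for 6 of the 29, against 1.12% of genes. The 150 bases before the RefSeq start are shown for 4 genes. These genes differ in how many copies they carry and, as described further on, in whether their RNA changed. By the GENCODE coordinates used for genes, the Ctsd stretch lies inside the gene, and the Gaa and Mcoln1 stretches reach into theirs. Gaa (chr11:119267813-119267962, plus strand) and Ctsd (chr7:142387828-142387977, minus strand) have 1 copy each in the stretch shown, Mcoln1 (chr8:3500369-3500518, plus strand) has 2 and Lamp1 (chr8:13159011-13159160, plus strand) has 4. Each is written 5′ to 3′ on the gene's strand, with CACGTG, or TCACGTGA where present, in capitals.
Gaa: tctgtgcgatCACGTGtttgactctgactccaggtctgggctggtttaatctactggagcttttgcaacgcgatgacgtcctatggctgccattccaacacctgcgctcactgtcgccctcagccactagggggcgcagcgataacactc
Ctsd: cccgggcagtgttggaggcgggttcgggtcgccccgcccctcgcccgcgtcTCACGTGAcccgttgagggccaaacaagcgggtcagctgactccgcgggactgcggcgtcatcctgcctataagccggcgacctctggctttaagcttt
Mcoln1: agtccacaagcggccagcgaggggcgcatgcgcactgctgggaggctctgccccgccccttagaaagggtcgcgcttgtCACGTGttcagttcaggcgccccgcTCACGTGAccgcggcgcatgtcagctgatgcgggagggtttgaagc
Lamp1: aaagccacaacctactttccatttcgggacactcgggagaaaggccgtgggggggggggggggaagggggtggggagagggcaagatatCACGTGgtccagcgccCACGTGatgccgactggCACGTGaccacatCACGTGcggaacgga
The full windows of Ctsa, Atp6v0d1, Atp6v1a, Gla, Glb1, Lgmn and Ctsl also held CACGTG.

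Across the series, Nkx2-1 averaged 48.9 ± 23.5 FPKM in mutant and 261 ± 20.7 FPKM in control AT1 cells, and 68.9 ± 8.64 FPKM in mutant and 296 ± 53.7 FPKM in control AT2 cells (SD, n = 3 each). Depth in reads is unknown, since FPKM hold no counts. Summed FPKM ran from 478979 to 614523 in mutant and 458291 to 530514 in control AT1 libraries, and from 536862 to 602980 in mutant and 633531 to 983397 in control AT2 libraries. Mitochondrially encoded transcripts took 12.8, 11.5 and 8.85% of mutant and 33.7, 27.7 and 14.0% of control AT2 libraries A to C. In AT1 and lung libraries, loci with mitochondrial names took 0%. AT1 marker genes summed to 1300 to 2865 FPKM in mutant and 9206 to 11356 FPKM in control AT1 cells, AT2 markers to 3014 to 4846 FPKM in mutant and 85321 to 113991 FPKM in control AT2 cells. Of these, 9 of 10 AT1 markers fell in AT1 cells and 10 of 10 AT2 markers fell in AT2 cells. AT2 markers were also present in AT1 libraries, summing to 3198, 5175 and 11374 FPKM in mutants and 12268, 7861 and 17926 FPKM in controls. General epithelial genes (Epcam, Cdh1, Cldn7 and the keratins Krt8, Krt18 and Krt19), which alveolar cells also express, rose in both mutants, 6 of 6 in AT1 and 5 of 5 in AT2 cells. In bulk libraries fewer cells of a type and less RNA per cell cannot be told apart.

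The summed FPKM of the lysosomal genes was 2867, 2644 and 2857 in mutant and 2936, 3299 and 3393 in control AT1 libraries A to C. The 23 genes of the AT2 table summed to 2243, 2452 and 2240 in mutant and 2599, 2725 and 2565 in control AT2 libraries. Mutant sums lay below every control sum in both cell types. As a share of the library's summed FPKM the order in AT2 cells was the other way, with 0.418, 0.407 and 0.417% in mutants and 0.275, 0.277 and 0.405% in controls, while in AT1 cells mutants stayed lower, with 0.466, 0.490 and 0.597% in mutants and 0.599, 0.622 and 0.740% in controls. The sums behind these shares differ in make-up. AT2 sums included mitochondrial transcripts and AT1 sums did not. AT2 markers took 9.72 to 13.5% of control and 0.561 to 0.903% of mutant AT2 sums. In whole lung the sum was 3844 FPKM in the mutant and 2596 FPKM in the control library.

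**Figure D1:**
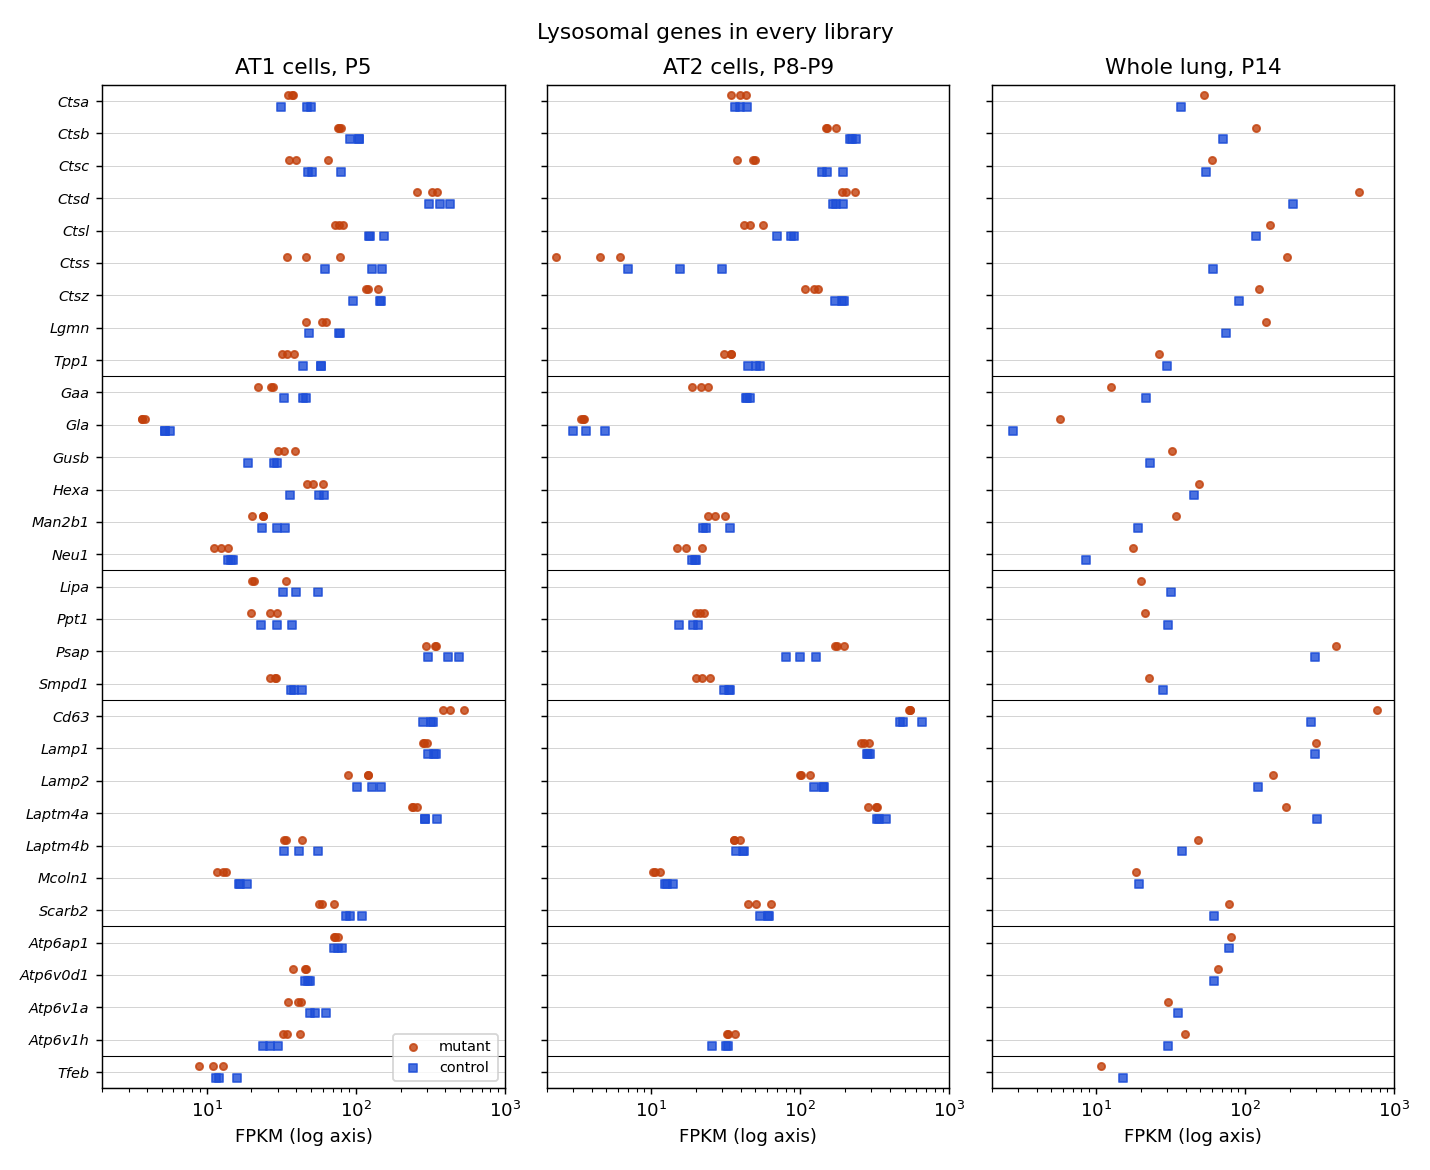
FPKM (log axis) of each lysosomal gene in every library, with mutant libraries as circles above control libraries as squares and lines between functional classes. Gaa, Ctsl, Tpp1 and Smpd1 lie lower in mutants of both cell types with no overlap, Ctsc separates clearly in AT2 cells (37.6 to 49.4 FPKM in mutants, 139 to 192 FPKM in controls), and Ctsd, Ctss and Cd63 are higher in mutant than in control whole lung.

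In AT1 cells 5 lysosomal genes fell and none rose. These were the protease Ctsl, the tripeptidyl peptidase Tpp1, the glycogen-degrading acid alpha-glucosidase Gaa, the acid sphingomyelinase Smpd1, and Scarb2, a membrane receptor that carries glucocerebrosidase to lysosomes. The falls were modest, between 0.47 and 0.78 on the log2(FPKM + 1) scale. The share that fell was 16.1% of 31 genes, against 6.22% of all 12612 loci tested, and the share that rose was 0 of 31, against 11.6% of loci. Genes were called at an adjusted p under 0.05 (limma, Benjamini-Hochberg over all loci), which 17.8% of loci passed in either direction. The median change of the 31 was -0.26, beside 0.00065 for all loci, and 27 of the 31 lay below 0.

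Ctsl (chr13:64359337-64370890, minus strand), a cysteine endopeptidase, had 77.1, 82.6 and 72.2 FPKM in mutant AT1 libraries A to C and 155, 123 and 124 FPKM in control libraries. The highest mutant library lay well below the lowest control. The change was -0.78 ± 0.15 (SE, log2(FPKM + 1), as are the changes below; limma adjusted p = 0.0148). Gaa (chr11:119267887-119285454, plus strand) had 22.0, 27.2 and 27.7 FPKM in mutants and 33.0, 44.2 and 46.2 FPKM in controls, a change of -0.65 ± 0.17 (limma adjusted p = 0.0387). Library A was the lowest of both arms, and the arms did not overlap.

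Scarb2 (chr5:92441314-92506833, minus strand) had 57.1, 59.2 and 72.1 FPKM in mutant AT1 libraries and 111, 92.2 and 85.6 FPKM in controls, a change of -0.61 ± 0.16 (limma adjusted p = 0.0375). Tpp1 (chr7:105744811-105752235, minus strand), which removes tripeptides from protein ends, had 34.6, 32.05 and 38.6 FPKM in mutants and 58.4, 44.1 and 58.9 FPKM in controls, a change of -0.59 ± 0.16 (limma adjusted p = 0.0399). All mutant libraries lay below all controls for both genes, with the closest pair of Tpp1 values in mutant C and control B. Smpd1 (chr7:105554360-105558389, plus strand), which cleaves sphingomyelin, had 26.7, 29.0 and 29.4 FPKM in mutants and 43.8, 36.9 and 38.3 FPKM in controls, a change of -0.47 ± 0.13 (limma adjusted p = 0.045).

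These AT1 calls rested on all 6 libraries. At equal summed FPKM 1 gene fell, Ctsl, against 5.19% of loci, and none rose, against 5.43%. Rescaled by the median ratio of each library to the average library, 6 genes fell and none rose, where 2249 of 12600 loci were called. Without mutant A or mutant C none of the 5 passed, without mutant B or control C Ctsl alone passed, without control B Ctsl and Tpp1, and without control A Ctsl and Gaa. Lipa passed without mutant C, and Lipa and Ctss passed without control A. Libraries with the same letter deviated together in AT1 cells, and with the letter as a block 7 genes fell, against 10.8% of loci, and 1 rose, against 15.1%. In that fit Lipa, the lysosomal acid lipase, fell by 0.76 (limma adjusted p = 0.0151), Atp6v1a, the catalytic pump subunit, by 0.47 (limma adjusted p = 0.0404) and Mcoln1, the calcium-releasing channel mucolipin 1, by 0.41 (limma adjusted p = 0.0466), and Atp6v1h, a regulatory pump subunit, rose by 0.43 (limma adjusted p = 0.038). Scarb2 was then at an adjusted p (limma) of 0.05004, just short of the threshold.

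Among the other AT1 proteases, Ctss, a cysteine protease of antigen-presenting cells, had the most negative value of all 31 genes, -1.07 ± 0.39, and did not pass (limma adjusted p = 0.0917). Its libraries overlapped, with 46.1, 34.5 and 78.6 FPKM in mutants and 61.8, 151 and 129 FPKM in controls. The summed FPKM of 23 leukocyte markers was 337, 349 and 415 in mutants and 406, 959 and 708 in controls, and 4 of the 23 fell. Endothelial markers summed to 266 to 321 FPKM in mutants and 392 to 808 FPKM in controls, and 2 of 12 fell. Mesenchymal markers summed to 2438 to 4259 FPKM in mutants and 3790 to 4694 FPKM in controls, and 1 of 11 fell. The mesenchymal sum was larger than the leukocyte and endothelial sums in every AT1 library. The part of these lists in the AT1 values was not tested. Ctsa, Ctsb, Ctsc, Ctsd, Ctsz and Lgmn lay between -0.37 and -0.020 without passing.

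Of the AT1 glycosidases besides Gaa, none passed. Gusb, beta-glucuronidase, had 39.0, 30.0 and 33.1 FPKM in mutants and 18.9, 29.5 and 28.3 FPKM in controls, a value of 0.42 ± 0.20 (limma adjusted p = 0.172). Gla, alpha-galactosidase A, Man2b1, the lysosomal alpha-mannosidase, and Neu1, the lysosomal sialidase, had values of -0.44, -0.33 and -0.20, and Hexa, a subunit of beta-hexosaminidase, 0.065. In the lipid class Lipa had 20.1, 20.7 and 33.8 FPKM in mutants and 32.6, 39.7 and 55.6 FPKM in controls. Its arms overlapped because library C was the highest in both, but each mutant library lay below the control of its own letter. Psap, the precursor of the saposin activator proteins, was at -0.28 and Ppt1, a thioesterase that removes palmitate from proteins, at -0.23.

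Among AT1 membrane proteins Scarb2 alone passed. Cd63, a tetraspanin of late endosomes and lysosomes, had 530, 432 and 384 FPKM in mutants and 319, 283 and 328 FPKM in controls, with no overlap, but did not pass (0.52 ± 0.18, limma adjusted p = 0.0777). Lamp1, with 4 CACGTG copies in its promoter stretch, was at 286, 281 and 303 FPKM in mutants and 336, 306 and 347 FPKM in controls (-0.18 ± 0.14, limma adjusted p = 0.4). Lamp2, Laptm4a and Laptm4b had values of -0.19, -0.33 and -0.21. Of the proton pump, Atp6v0d1 and the accessory subunit Atp6ap1 were at -0.14 and -0.056.

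Tfeb had 11.1, 12.8 and 8.90 FPKM in mutant and 11.6, 16.1 and 12.1 FPKM in control AT1 cells, with overlapping arms (-0.26 ± 0.19, limma adjusted p = 0.358). Among the 28 AT1 genes with a promoter window, 2 of 10 with CACGTG and 3 of 18 without it fell, with median changes of -0.33 and -0.27.

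In AT2 cells 10 lysosomal genes fell and 1 rose. Proteases made up most of the falls, with 6 of 8 lower, namely Ctsc, Ctss, Ctsl, Ctsz, Tpp1 and Ctsb. Gaa, Smpd1, Lamp2 and Mcoln1 also fell, and Psap was the gene that rose. The share that fell was 43.5% of 23 genes, against 22.3% of 11610 loci tested, and the share that rose was 4.35%, against 32.4% of loci, with 54.7% of loci called in either direction. The median change was -0.16, beside 0.093 for all loci, and 17 of the 23 lay below 0, against 5 of 23 at equal summed FPKM.

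Apart from Ctsc and Ctss, the calls of AT2 falls depended on the scale. Rescaling every library to an equal summed FPKM moved the median of all loci to 0.61, and relative to that median 17 of 23 lysosomal genes were still below, against 19 of 23 on the deposited scale. On that scale 2 genes were lower, Ctsc and Ctss, against 8.02% of loci, and 9 were higher, against 55.0% of loci, among them Ctsd, Lamp1 and Cd63. Leaving mitochondrial and small RNA loci out of the sum moved the median to 0.35 and gave 5 lower and 5 higher genes, against 12.7% and 46.5% of loci. Ctsc, Ctss, Gaa, Ctsl and Ctsz were the 5 lower genes there. Rescaling by median ratio moved the median to -0.024 and gave 11 lower genes and 1 higher. With that scale 6247 of 11620 loci were called in either direction, and 19 of 23 lysosomal genes lay below the median.

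Ctsc (chr7:88278085-88310888, plus strand), a dipeptidyl peptidase best known for activating serine proteases of leukocyte granules, had 37.6, 48.4 and 49.4 FPKM in mutant AT2 libraries A to C and 150, 192 and 139 FPKM in controls. Control means were 3.55 times mutant means, and no library was near the other arm. The change of -1.80 ± 0.16 was the most negative of the set (limma adjusted p = 0.000118), and it passed under every alternative run. Ctss (chr3:95526786-95556403, plus strand) had 2.30, 6.15 and 4.54 FPKM in mutants and 15.7, 7.02 and 29.7 FPKM in controls, a change of -1.66 ± 0.49 (limma adjusted p = 0.0228). Mutant B and control B nearly met, and the call was lost without mutant A (limma adjusted p = 0.0695), mutant C (limma adjusted p = 0.0508) or control A (limma adjusted p = 0.0588), with the P8 libraries alone (limma adjusted p = 0.0964) and with no filter on low values (limma adjusted p = 0.0654).

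Leukocyte markers as a sum were also lower in mutant AT2 libraries. Their summed FPKM was 83.2, 196 and 93.9 in mutant and 557, 215 and 349 in control AT2 libraries, 8 of the 11 tested fell, and none of the 19 listed was at 0 in every library. Endothelial markers fell too, 12 of 12, with sums of 45.8 to 86.3 FPKM in mutants and 127 to 212 FPKM in controls. Of the mesenchymal markers 6 of 7 tested fell and 1 rose, with sums of 113 to 146 FPKM in mutants and 222 to 459 FPKM in controls. The part of these lists in the AT2 values was not tested. In control B, where the leukocyte sum was lowest of the controls, Ctsc was highest and Ctss lowest. In control A, where that sum was highest, both genes lay between the other controls.

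**Figure D2:**
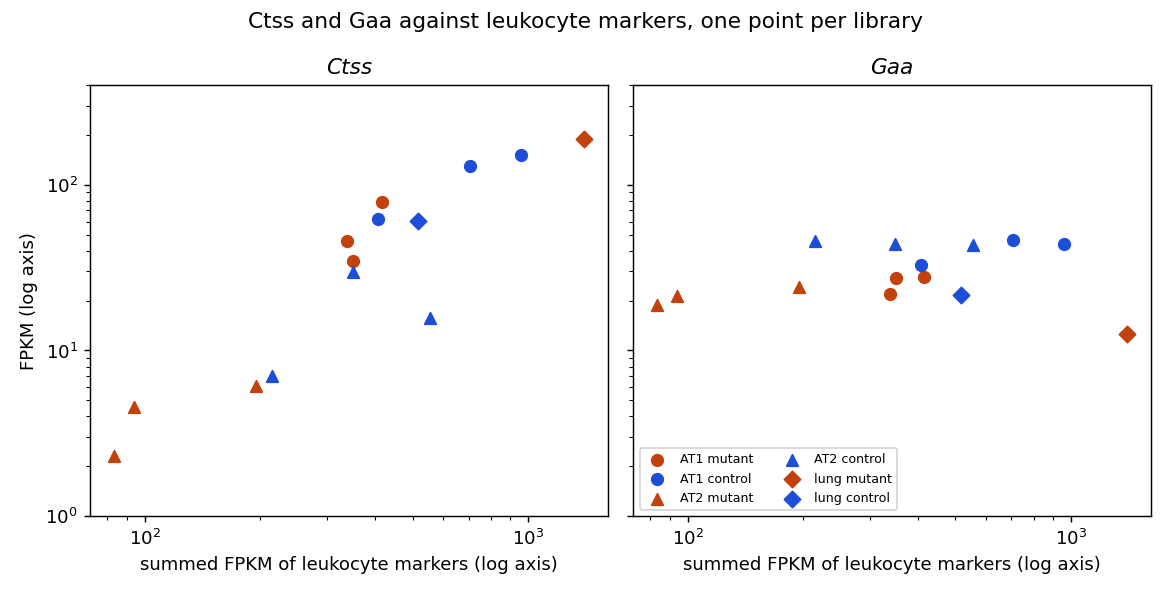
FPKM of Ctss (left) and Gaa (right) against the summed FPKM of leukocyte markers (log axes), 1 point per library, with mutants in red, controls in blue, AT1 as circles, AT2 as triangles and lung as diamonds. Within AT2 cells Ctss is lowest, 2.30 FPKM, in the mutant library with the smallest leukocyte sum, 83.2. It is highest, 29.7 FPKM, in control C with a sum of 349, not in control A with the largest, 557. Within AT1 cells Ctss is highest, 151 FPKM, in the control library with the largest sum, 959. Its lowest AT1 value, 34.5 FPKM, is in mutant B with 349, not in mutant A with the smallest sum, 337. AT2 values come from a table normalized separately, so points are compared within a tissue.

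Gaa had 18.9, 24.2 and 21.5 FPKM in mutant AT2 cells and 43.5, 46.1 and 44.2 FPKM in controls, a change of -1.02 ± 0.10 (limma adjusted p = 0.000202). The arms were far apart, with control means 2.07 times mutant means. Ctsl had 42.1, 55.9 and 46.3 FPKM in mutants and 90.8, 86.2 and 70.0 FPKM in controls, a change of -0.76 ± 0.14 (limma adjusted p = 0.00324). Ctsz (chr2:174427493-174439039, minus strand), a carboxypeptidase, had 108, 131 and 123 FPKM in mutants and 170, 196 and 190 FPKM in controls, a change of -0.62 ± 0.11 (limma adjusted p = 0.00313). Neither gene overlapped between arms; with equal summed FPKM Gaa, Ctsl and Ctsz stayed below 0 but did not pass.

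Tpp1 had 30.7, 34.2 and 34.4 FPKM in mutant AT2 cells and 53.3, 44.4 and 50.4 FPKM in controls (-0.56 ± 0.10, limma adjusted p = 0.00253). Smpd1 had 19.9, 24.7 and 22.0 FPKM in mutants and 33.8, 33.0 and 31.0 FPKM in controls (-0.54 ± 0.098, limma adjusted p = 0.003). Ctsb (chr14:63122462-63145923, plus strand), a cysteine protease with both endo- and exopeptidase activity, had 151, 173 and 148 FPKM in mutants and 237, 215 and 223 FPKM in controls (-0.52 ± 0.11, limma adjusted p = 0.00559). These 3 falls had no overlap between arms, but with equal summed FPKM the values turned to 0.011, 0.026 and 0.067.

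Lamp2 (chrX:38401357-38456454, minus strand), a membrane glycoprotein needed for fusion with autophagosomes, had 101, 116 and 99.2 FPKM in mutant AT2 cells and 142, 144 and 124 FPKM in controls (-0.38 ± 0.11, limma adjusted p = 0.0216). Mcoln1 (chr8:3500457-3515232, plus strand) had 11.5, 10.3 and 10.6 FPKM in mutants and 14.0, 12.5 and 12.7 FPKM in controls (-0.25 ± 0.087, limma adjusted p = 0.041). Both had arms that did not overlap, and both were the least stable calls: Lamp2 was lost without mutant A, mutant C or control A, at limma adjusted p of 0.0838, 0.0874 and 0.0683, and with the P8 libraries alone (limma adjusted p = 0.0543). Mcoln1 was lost without any library except control B, at limma adjusted p of 0.0568 to 0.126, with the P8 libraries alone (limma adjusted p = 0.134), with no filter (limma adjusted p = 0.0586) and with one prior variance (limma adjusted p = 0.0510). With equal summed FPKM Lamp2 and Mcoln1 turned to 0.21 and 0.29.

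Psap (chr10:60277627-60302597, plus strand) rose in AT2 cells, with 171, 196 and 176 FPKM in mutants and 99.0, 79.7 and 127 FPKM in controls. The lowest mutant library exceeded the highest control, control C of day 9. The change was 0.84 ± 0.17 (limma adjusted p = 0.00461), and it passed under every alternative run, between 0.68 and 1.43.

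The other 12 AT2 genes did not pass on the deposited scale. Ctsd, the aspartic protease, had 190, 234 and 204 FPKM in mutants and 173, 165 and 194 FPKM in controls (0.23 ± 0.12, limma adjusted p = 0.142). Cd63 was the most abundant of the set, with 542, 534 and 545 FPKM in mutants and 465, 650 and 491 FPKM in controls. Lamp1, Laptm4a, Laptm4b and Scarb2 had values between -0.16 and -0.084, Ctsa, Gla, Man2b1 and Neu1 between -0.12 and 0.068, and Ppt1 and Atp6v1h 0.21 and 0.17. Among the AT2 genes with a promoter window, 3 of 7 with CACGTG fell, and 6 of 13 without it fell and 1 rose.

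**Figure D3:**
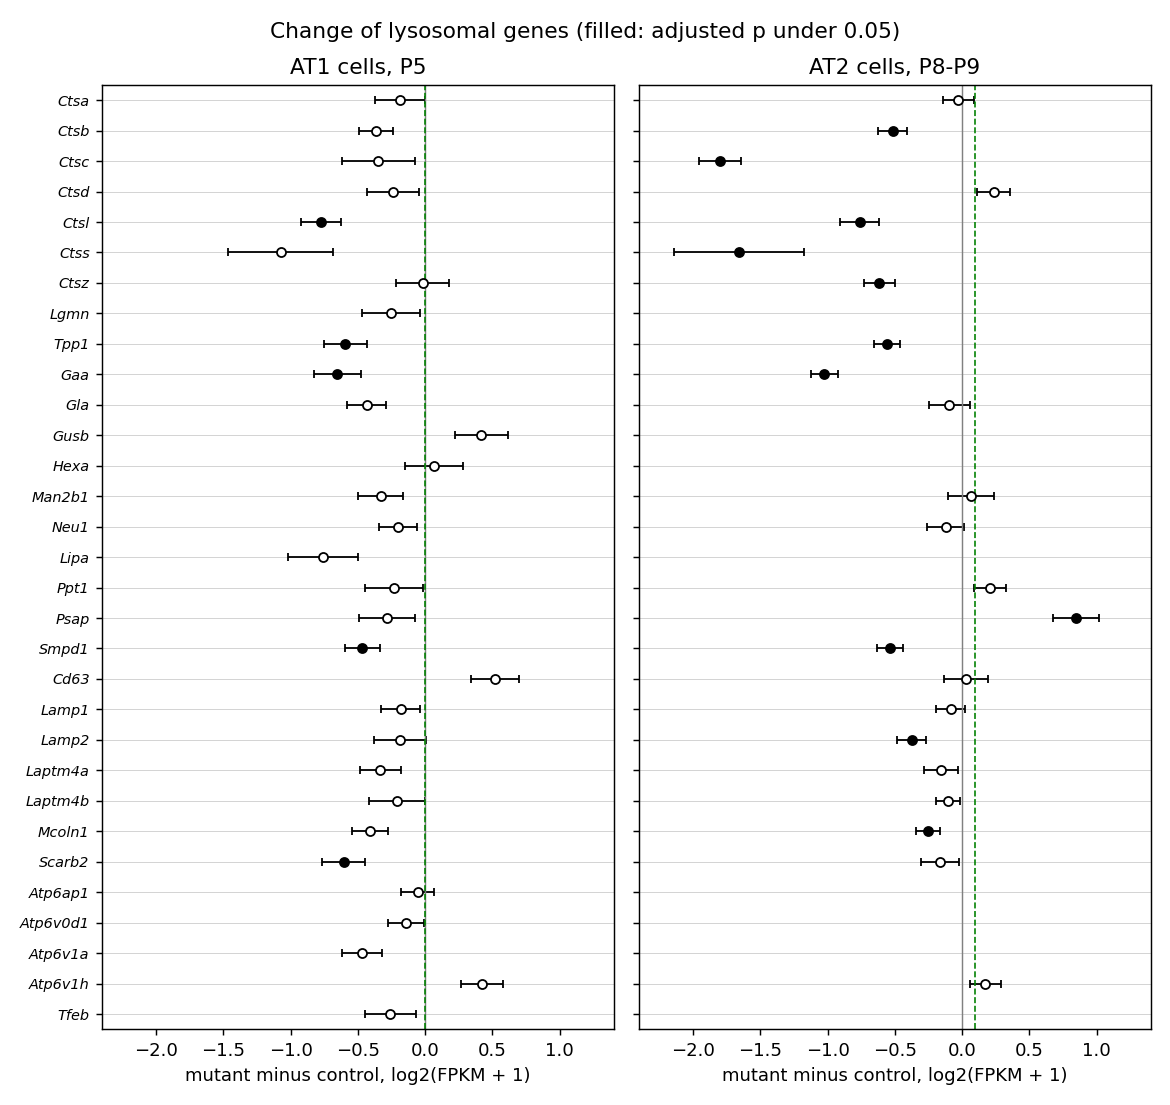
Mutant minus control on the log2(FPKM + 1) scale for each lysosomal gene in AT1 cells (left) and AT2 cells (right), with SE bars. Filled points have a limma adjusted p under 0.05, the solid line marks 0 and the dashed line the median of all loci tested (0.00065 and 0.093); with equal summed FPKM 12 AT2 values turn above 0, among them Ctsb, Tpp1, Smpd1, Lamp2 and Mcoln1.

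Set side by side on the deposited scale, the cell types shared 4 falls and differed by test at 2 genes. Gaa, Ctsl, Tpp1 and Smpd1 fell in both. At equal summed FPKM none of these 4 passed in AT2 cells, and Ctsl alone passed in AT1 cells. Without AT1 mutant A or AT1 mutant C none of them passed in AT1 cells. Of the 23 genes listed in both tables, 17 lay below 0 in both on the deposited scale, and 11 passed in neither. The same counts were not made over all genes named in both tables. Whether shared falls were more common in the set than among other genes was therefore not tested. The difference of the changes, AT2 minus AT1, was tested over the 12 AT1 and AT2 libraries and 10336 genes, of which 8.29% were called. Ctsc had the only called negative difference among the 23, against 4.28% of genes, -1.45 ± 0.35 (limma adjusted p = 0.0268), from changes of -1.80 in AT2 and -0.35 in AT1 cells. Its mutant AT1 libraries had 39.9, 35.7 and 65.5 FPKM and its control AT1 libraries 51.0, 47.7 and 80.1 FPKM, so the arms overlapped there. Psap had the only called positive difference, against 4.02% of genes, 1.13 ± 0.27 (limma adjusted p = 0.0291), from 0.84 in AT2 and -0.28 in AT1 cells.

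In AT1 cells Psap had 298, 339 and 346 FPKM in mutants and 305, 497 and 416 FPKM in controls. Leaving out 1 library could end either interaction call. The Psap difference was lost without AT1 mutant A, AT1 control C, any AT2 mutant, or AT2 control A or B, at limma adjusted p of 0.0541 to 0.071. The Ctsc difference was lost without AT2 mutant A or C, or AT2 control A or B, at limma adjusted p of 0.0507 to 0.0738, and with equal summed FPKM it was -0.74 (limma adjusted p = 0.141), where the median of all genes was 0.67, against 0.070 on the deposited scale. For Gaa, Ctsl, Tpp1 and Smpd1 the differences were -0.37 ± 0.20, 0.014 ± 0.20, 0.034 ± 0.18 and -0.071 ± 0.15, and none passed, which does not show that the effects were equal.

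**Figure D4:**
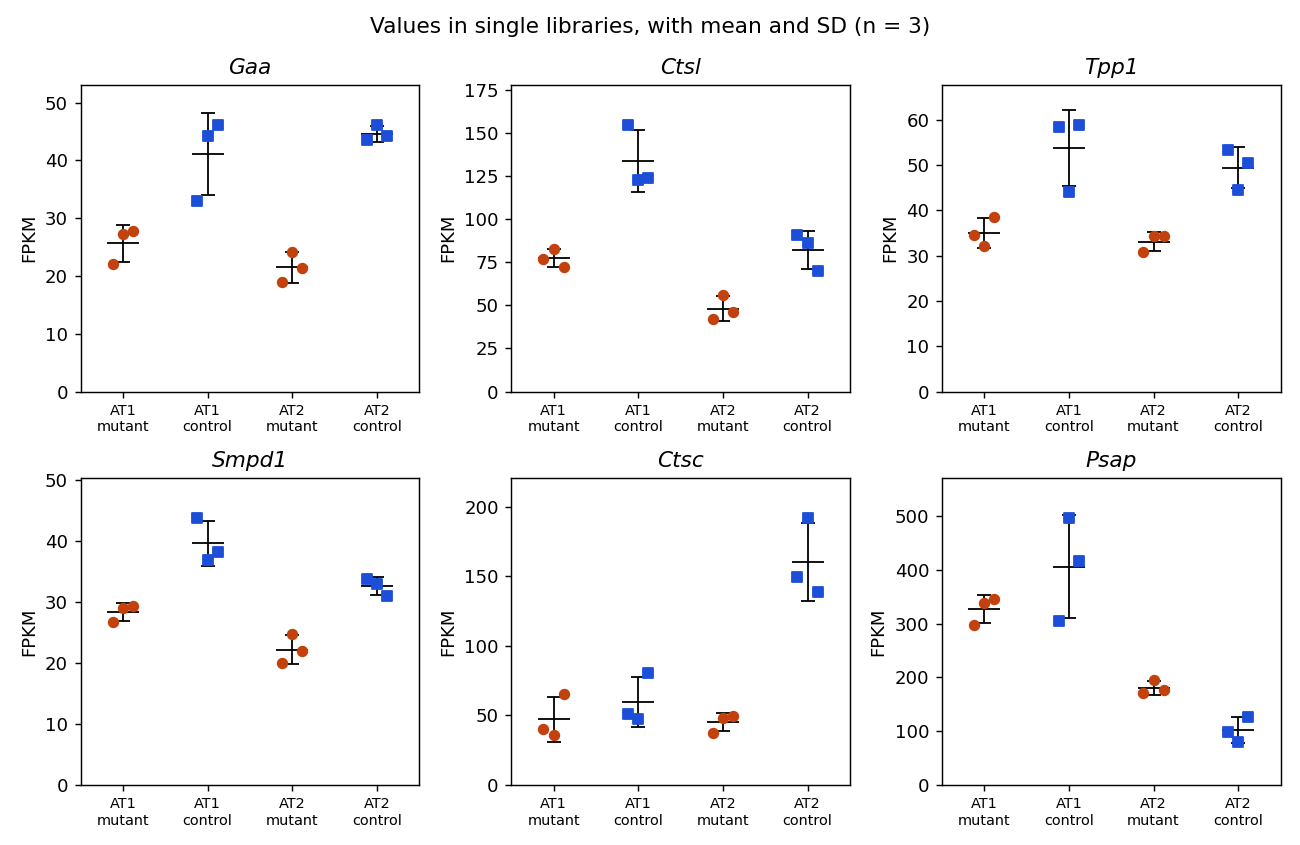
FPKM of 6 lysosomal genes in single libraries of AT1 and AT2 cells, mutants in red left of controls in blue, with mean and SD bars (n = 3). Gaa, Ctsl, Tpp1 and Smpd1 are lower in mutants of both cell types on the deposited scale (in AT2 cells Tpp1 and Smpd1 turn above 0 with equal summed FPKM), Ctsc is far lower in AT2 mutants, and Psap is higher in AT2 mutants. The AT1 and AT2 tables were normalized separately.

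Whole lung at postnatal day 14 had 1 library per group and is therefore described without a test. Of 31 genes, 8 were more than 1.5-fold higher in the mutant, 25.8% against 24.4% of the 10549 loci at 5 FPKM or more in either library, and 3 were more than 1.5-fold lower, 9.68% against 19.9%. The counts of higher genes were thus near the background. Ctss was at 190 FPKM in the mutant and 60.6 FPKM in the control library, Ctsd at 580.5 FPKM in the mutant and 209.7 FPKM in the control, and Cd63 at 763 FPKM in the mutant and 279 FPKM in the control. Neu1, Gla, Lgmn, Man2b1 and Ctsb were the other higher genes, with log2(FPKM + 1) differences of 0.72 to 0.96. Leukocyte markers summed to 1402 FPKM in the mutant and 517 FPKM in the control lung, with 16 of 20 more than 1.5-fold higher. Endothelial markers summed to 875 FPKM in the mutant and 2537 FPKM in the control, with 11 of 12 more than 1.5-fold lower, and mesenchymal markers to 3556 FPKM in the mutant and 8620 FPKM in the control, with 8 of 10 lower. The part of these lists in the lung values was not tested.

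Gaa was at 12.6 FPKM in the mutant and 21.5 FPKM in the control lung, Lipa at 20.1 FPKM in the mutant and 31.7 FPKM in the control, and Laptm4a at 188 FPKM in the mutant and 303 FPKM in the control. Gaa was lower in mutants in AT1 cells, AT2 cells and lung, also at equal summed FPKM (-0.54 in lung). On that scale it did not pass in AT1 cells (limma adjusted p = 0.0566) or AT2 cells (limma adjusted p = 0.0633), and lung was not tested. Tfeb was at 10.8 FPKM in the mutant and 15.1 FPKM in the control. The median log2(FPKM + 1) difference of the 31 genes was 0.32, beside 0.094 for all loci. With equal summed FPKM 12 genes were higher and none lower, while the median of all loci moved to 0.29. With small RNA loci left out of the sum 4 were higher and 6 lower, while that median moved to -0.25. Mitochondrial loci held 0% of the lung sums.

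The wider pathway was followed with lists of further lysosomal genes, delivery factors, regulators and autophagy genes, chosen with earlier results of these data known. In AT1 cells 131 such genes were tested, of which 5 rose, 3.82% against 11.6% of all loci, and 13 fell, 9.92% against 6.22%. In AT2 cells 116 were tested, of which 18 rose, against 32.4% of loci, and 47 fell, 40.5% against 22.3%. Rescaled by median ratio, 15 of 116 were higher and 59 lower, where 6247 of 11620 loci were called in either direction. With equal summed FPKM 43 of 115 were higher, 37.4% against 55.0% of loci, and 15 lower, 13.0% against 8.02%. With mitochondrial and small RNA loci left out of the sum 31 were higher, 26.7% against 46.5%, and 29 lower, 25.0% against 12.7%. Single lists are read against these shares of all loci. Every AT2 gene named below kept its direction on all 3 rescalings, and limma adjusted p of the genes named from these lists lay between 1.18e-05 and 0.0475.

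Other proteases of AT2 cells included Napsa, napsin A, at 107 ± 34.0 FPKM in mutants and 1471 ± 280 FPKM in controls (SD, n = 3 each), a change of -3.80 (limma adjusted p = 4.71e-05). Ctsh, cathepsin H, was at 396 ± 65.8 FPKM in mutants and 1206 ± 306 FPKM in controls (SD, n = 3 each), a change of -1.58. Ctse, an aspartic protease of gastric and immune cells, rose by 3.04 in AT2 and 3.09 in AT1 cells, with 16.5 ± 8.00 FPKM in mutant and 0.99 ± 0.050 FPKM in control AT2 cells (SD, n = 3 each). In AT1 cells it was at 17.8 ± 21.9 FPKM in mutants and 0.40 ± 0.20 FPKM in controls (SD, n = 3 each), with a spread between mutant libraries larger than their mean. There Ctse passed the filter on low values only through the mutant libraries. In AT2 cells its control values lay at about the 1 FPKM of the filter. Ctsf fell by 0.62 in AT1 cells. In all, 1 rose and 2 fell of 7 tested in AT2 cells, with 28.6% lower against 22.3% of loci, and 1 rose and 1 fell of 8 in AT1 cells.

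Of 17 glycosidases and sulfatases in AT2 cells 6 were higher, 35.3% and near the 32.4% of loci, and 6 lower, 35.3% against 22.3%. On either equal-sum scale 7 were higher, 41.2% against 55.0% and 46.5% of loci, and 1 lower. Hyal2, a hyaluronidase, was at 29.0 ± 4.36 FPKM in mutants and 11.7 ± 0.88 FPKM in controls (SD, n = 3 each) and rose by 1.23. Galc, galactosylceramidase, fell by 1.13 and Arsb, arylsulfatase B, rose by 0.75. In AT1 cells 2 of 18 fell, Sgsh by 0.68 and Arsa by 0.53. Of the lipid, nucleic acid and phosphate group, 3 of 9 fell in AT2 cells, 33.3% against 22.3% of loci, and 2 rose. Npc2, the soluble cholesterol carrier, was at 214 ± 30.6 FPKM in mutants and 708 ± 72.1 FPKM in controls (SD, n = 3 each), a change of -1.72, while Rnaset2a fell by 0.98. Acp2, a lysosomal acid phosphatase, fell by 0.51 in AT1 cells, 1 of 9 tested.

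Lamp3, the LAMP protein of lamellar bodies and dendritic cells, was at 25.4 ± 9.49 FPKM in mutant and 706 ± 28.5 FPKM in control AT2 cells (SD, n = 3 each), a change of -4.80 (limma adjusted p = 1.18e-05), the most negative of the list genes named. The tetraspanin Tspan8 rose by 1.76 and Cd68, a macrophage marker also on the leukocyte list, fell by 2.02. In all 10 of 20 fell in AT2 cells, against 22.3% of loci, and 4 rose, 20.0% against 32.4%. In AT1 cells 3 of 25 fell, led by Tpcn2, a two-pore channel, by 1.31 and the peptide transporter Slc15a3 by 1.22, and Cd82 rose by 0.74.

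Of the proton pump subunits outside the set, 7 of 15 fell in AT2 cells, 46.7% against 22.3% of loci, and 1 rose, 6.67% against 32.4%. At equal summed FPKM 3 of 14 were lower, 21.4% against 8.02%, and 3 higher, 21.4% against 55.0%. Atp6v1c2, a tissue-restricted subunit, was at 15.7 ± 5.39 FPKM in mutants and 216 ± 42.5 FPKM in controls (SD, n = 3 each), a change of -3.74. Atp6v1b1, the B subunit known from kidney and inner ear, rose by 2.74. It averaged 6.23 ± 2.09 FPKM in mutants and 0.057 FPKM in controls. Atp6v0d2 had 0.19 FPKM in mutants and 2.502 FPKM in controls, a change of -1.499. Atp6v1b1 and Atp6v0d2 passed the filter on low values only through the arm where they were high, with the other arm near 0. The deposited-scale counts above include both. In AT1 cells Atp6v1b1 rose by 1.29, Atp6v0a1 fell by 0.73 and the other 15 of 17 did not pass.

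Igf2r, the cation-independent mannose 6-phosphate receptor, was at 55.2 ± 8.42 FPKM in mutant and 23.8 ± 3.89 FPKM in control AT2 cells (1.18), and at 76.3 ± 10.4 FPKM in mutant and 36.5 ± 3.57 FPKM in control AT1 cells (1.04) (SD, n = 3 each). Gnptab and Gnptg, subunits of the enzyme that builds the mannose 6-phosphate tag, fell by 1.20 and 0.92 in AT2 cells. Sort1, the sorting receptor sortilin, fell by 1.30 and Lmbrd1 by 0.62 in AT1 cells. In all 5 of 13 fell in AT2 cells, 38.5% against 22.3% of loci, and 2 rose, and 2 of 15 fell and 1 rose in AT1 cells.

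Among the regulators 6 of 17 fell in AT2 cells, 35.3% against 22.3% of loci, and 2 rose, 11.8% against 32.4%. At equal summed FPKM 10 were higher and 2 lower, 58.8% and 11.8%, near the 55.0% and 8.02% of loci. Flcn, folliculin, which acts on the Rag GTPases, was at 6.56 ± 0.30 FPKM in mutant and 39.1 ± 7.06 FPKM in control AT2 cells (SD, n = 3 each), a change of -2.39, and fell by 0.72 in AT1 cells. The difference between the cell types was -1.67 (limma adjusted p = 0.00171). Mitf, a relative of Tfeb, fell by 1.48 in AT2 cells. Rragd, a Rag GTPase gene, fell by 0.99 in AT2 cells and rose by 0.95 in AT1 cells, a difference of -1.93 (limma adjusted p = 0.0086), with means of 1.63 FPKM in mutant and 4.34 FPKM in control AT2 cells, and 2.25 FPKM in mutant and 0.64 FPKM in control AT1 cells.

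Of the autophagy genes 8 of 18 fell in AT2 cells, 44.4% against 22.3% of loci, and 2 of 20 in AT1 cells, against 6.22%, and none rose on the deposited scale. At equal summed FPKM 5 were higher in AT2 cells, 27.8% against 55.0% of loci, and 1 lower, 5.56% against 8.02%. Uvrag, which acts in endosome and autophagosome maturation, was at 13.6 ± 0.11 FPKM in mutant and 29.4 ± 3.41 FPKM in control AT2 cells and at 14.1 ± 1.05 FPKM in mutant and 27.6 ± 3.05 FPKM in control AT1 cells (SD, n = 3 each), with changes of -1.05 and -0.91. Map1lc3a, an LC3 gene, fell by 1.08 and Sqstm1, the cargo receptor p62, by 0.69 in AT2 cells. Plekhm1 fell by 0.72 in AT1 cells.

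**Figure D5:**
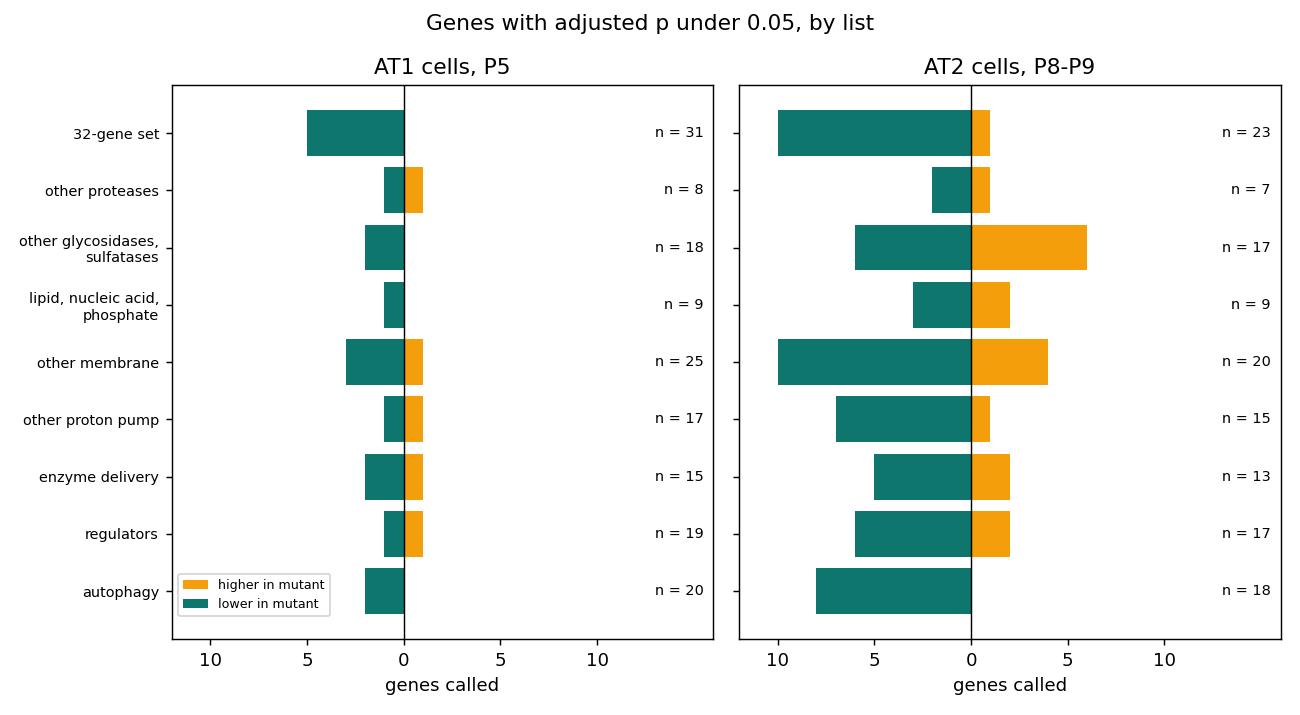
Number of genes with a limma adjusted p under 0.05 in each list, higher in mutants to the right and lower to the left, with the number tested on the right edge, for AT1 cells (left panel) and AT2 cells (right panel) on the deposited scale. The lysosomal set has 5 lower of 31 in AT1 cells and 10 lower and 1 higher of 23 in AT2 cells. At equal summed FPKM the AT2 counts for the set become 2 lower and 9 higher, and by median ratio 11 lower and 1 higher.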

How the data were processed

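Expression was measured by RNA sequencing of poly(A)-selected RNA, per the labels' protocols. The tools named were Bowtie2 2.2.3, TopHat2 2.0.14 and Cufflinks 2.2.1, with Cuffdiff for AT1 and lung and Cuffnorm for AT2 libraries, and the build was mm10, per the submitters' processing notes. The sources used here do not give the gene annotation or strand setting. The authors deposited FPKM per library, with AT1 and lung in one table and AT2 in another, normalized separately. Depth in reads is unknown. Genes sharing a locus or a near-identical copy are uncertain. Names read as dates at 26 AT1 and lung loci and 23 AT2 loci, and 1441 AT2 loci had no name. The fold changes in the authors' deposited table were not used.

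Values were analysed as log2(FPKM + 1), which understates changes of low genes, over loci at 1 FPKM or more in at least 3 libraries. Tests used limma 3.58.1 in R 4.3.3, two-sided, with a mean-dependent prior variance, Benjamini-Hochberg adjustment over all loci and a threshold of 0.05. AT1 and AT2 cells were fitted separately, and the AT2 minus AT1 difference in a joint fit over genes named once in each table. Lung, with 1 library per group, was described by ratios past 1.5-fold where the higher library reached 5 FPKM. The steps were also run on simulated data with independent noise per library. AT1 libraries of the same letter deviated together, so that run does not cover the AT1 fit without a block. Tables were made with pandas 2.3.3 and NumPy 2.4.6 under Python 3.11.15, and plots with matplotlib 3.10.9. Gene coordinates come from GENCODE and promoter windows from RefSeq, both on GRCm38.

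The letters A, B and C come from the sample titles. In AT1 cells same-letter mutant and control libraries deviated together (correlations across genes of 0.237, 0.357 and 0.477), so the fit with the letter as a block is given beside the results it changed. In AT2 cells they did not. Alternatives covered the pseudocount, the filter, 3 rescalings, the prior, each library left out and the P8 libraries alone. The genes of the set, the lists and the tests were chosen with earlier results of these data known. Values per library are given for genes passing a test and for Tfeb, and from the other lists at most 3 genes per comparison with the largest called change; genes that missed the threshold were given per library after their values were seen.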

Additional observations from a re-analysis of the deposited data

Results flagged for a closer look

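In 2 genes the mutant effect differed between AT2 and AT1 cells by a test of the difference itself, out of 23 tested, a share near the 8.29% of all 10336 genes called. The Ctsc difference was -1.45 ± 0.35 on the log2(FPKM + 1) scale (limma adjusted p = 0.0268), with a change of -1.80 in AT2 and -0.35 in AT1 cells; all 3 AT2 mutant libraries lay below all AT2 controls, while the AT1 arms overlapped. The Psap difference was 1.13 ± 0.27 (limma adjusted p = 0.0291), with 0.84 in AT2 and -0.28 in AT1 cells; all 3 AT2 mutant libraries lay above all AT2 controls, and the AT1 arms overlapped. Leukocyte marker sums were lower in AT2 mutants (83.2 to 196 FPKM) than in AT2 controls (215 to 557 FPKM), and their part in the Ctsc difference was not tested. Both calls were lost when 1 of several libraries was left out, at limma adjusted p of 0.0507 to 0.0738 for Ctsc and 0.0541 to 0.071 for Psap.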

How the results depend on the processing

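Lysosomal genes lower in AT1 cells numbered 5, then 2 with no filter on low values, 1 at equal summed FPKM, and 0 to 4 with 1 library left out; none was higher except 1 with the replicate block, where all called loci numbered 3266 against 2247 (1342 at equal summed FPKM, 473 to 1990 with 1 library left out). In AT2 cells the set had 10 lower and 1 higher, against 2 and 9 at equal summed FPKM, 5 and 5 with mitochondrial and small RNA loci left out of the sum, and 7 to 10 and 1 with 1 library left out; all called loci numbered 6356, against 4944 to 6052 with 1 library left out and 4242 at P8 alone. Rescaling by median ratio gave 11 lower and 1 higher in AT2 cells, with 6247 loci called in all. In AT1 cells it gave 6 lower and none higher, with 2249 loci called. The interaction on that scale had 1 lower and 1 higher, with 961 genes called. AT2 letters did not pair the libraries (same-letter correlations 0.112, -0.117 and 0.127), and the replicate block changed no AT2 call of the set. The interaction had 1 lower and 1 higher, against 0 and 11 at equal summed FPKM, 1 and 6 with mitochondrial and small RNA loci left out, and 0 to 1 each with 1 library left out. Called genes in the interaction numbered 857, against 3715 and 2630 on those 2 scales, 1345 with the replicate block and 407 to 1038 with 1 library left out. Lung counts of 8 higher and 3 lower became 3 and 0 past 2-fold, 12 and 0 at equal summed FPKM and 4 and 6 without small RNA loci. All loci past the fold numbered 2553 past 2-fold. At equal summed FPKM 12 AT2 values changed sign, to 0.36 for Gla, 0.43 for Neu1, 0.41 for Scarb2, 0.43 for Laptm4a, 0.54 for Ctsa, 0.067 for Ctsb, 0.011 for Tpp1, 0.026 for Smpd1, 0.50 for Lamp1, 0.21 for Lamp2, 0.46 for Laptm4b and 0.29 for Mcoln1, and 8 without mitochondrial and small RNA loci, with Mcoln1 at 0.017. The median of all loci moved with those scales, so the counts move by construction. The interaction median became 0.67 and 0.39, and the AT1 median -0.12 at equal summed FPKM. With 1 library left out, the smaller arm was assumed to vary like the other. Precision is limited by 3 libraries per arm.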
